A study of Mus musculus with 18 samples.

Results

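Control naive CD4+ T cells that had spent 8 h in culture with antibodies against CD3 and CD28 were compared with control cells profiled straight after isolation. The comparison rests on 6 of the 18 libraries of the series, 3 per group, and on 10877 of the 15137 genes with a deposited value (71.9%), namely those whose linear value reached 10 in no fewer than 3 of the 18 libraries. Control stimulated cells were cultured with both antibodies at 1 µg/ml. Control unstimulated cells were kept in the same medium for 8 h without antibodies, and they serve only to say which changes needed stimulation. Control fresh cells were not cultured. All 3 groups are C57BL/6J spleen cells sorted as naive CD3+ CD4+ cells without CD25 or CD44, and for the control genotype the labels give no allele and no age. The 9 libraries of mice with a conditional Creld1 knockout enter the filter on low values, the shared estimate of the spread and 1 test of a genotype difference, and no group mean given here. The labels give the 3 libraries of a group the same mouse number and each group a different one. The p-values therefore speak of the spread among libraries alone, part or all of which could be technical, and mouse number and group cannot be told apart.

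A naive CD4+ T cell is held quiescent and circulates between blood and lymphoid organs until its receptor meets antigen. Antibodies against CD3 and CD28 imitate antigen and co-stimulation: they engage the receptor complex and the co-receptor CD28, and the calcium, Ras-MAP kinase and NF-kB pathways then drive NFAT, AP-1, Egr and NF-kB transcription factors. Immediate-early genes such as Fos, Jun and the Egr genes are the first to be transcribed after such signals, and they are also known to be induced by tissue dissociation and cell sorting.

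The markers were those of CD4 T cells, but they did not show that regulatory and memory cells were absent. All 9 naive CD4 T cell markers reached the minimum, with Cd4 at 12.54, 12.54 and 12.46 in stimulated libraries and at 12.70, 12.81 and 12.68 in fresh libraries on the deposited log2 scale, which all levels below share. Most markers of other cells did not: 2 of 7 B cell, 4 of 10 CD8 T and natural killer, 2 of 8 myeloid, 0 of 3 red cell and 1 of 3 stroma and endothelium markers with a value reached it, whereas 6 of 6 regulatory T cell markers and 5 of 10 from the memory and effector list did. Any 3 of the 18 libraries could meet the minimum, so it does not place a marker in these groups. Mean levels in fresh cells were 8.39 for Cd44, 9.12 for Ctla4, 6.14 for Il2ra and 6.02 for Foxp3. The summed level of the memory and effector list was 9.95 to 10.18 in stimulated, 10.16 to 10.25 in unstimulated and 10.56 to 10.67 in fresh libraries. That of the CD8 T and natural killer list was 7.47 to 7.74, 7.66 to 7.85 and 7.96 to 8.38 in the same order, and that of the myeloid list 5.65 to 6.00, 5.72 to 5.87 and 6.38 to 6.48. The stroma and endothelium list summed to 10.66 to 10.89, 11.04 to 11.07 and 10.91 to 10.95, nearly all of it Pecam1, an adhesion gene that naive T cells are also known to express, while Col1a1 and Cdh5 stayed under the minimum. In bulk RNA, fewer cells of a type and less RNA per cell cannot be told apart. Mitochondrially encoded genes took 3.72 ± 0.418% of the linear sum in stimulated, 3.27 ± 0.328% in unstimulated and 4.11 ± 0.800% in fresh libraries (SD, n = 3 each; exact permutation p = 0.70 between stimulated and fresh, two-sided, where the smallest possible is 0.10). Sequencing depth is unknown, since the values were normalized before deposit and sum on the linear scale to 6782465 to 7419367 in each library. The sums did not overlap between stimulated (6885173 to 6948858) and fresh libraries (7192712 to 7286166; exact permutation p = 0.10, two-sided). The slope of the log2 values on transcript GC content averaged 0.0040 ± 0.125 in stimulated, 0.151 ± 0.088 in unstimulated and -0.0049 ± 0.136 in fresh libraries (SD, n = 3 each).

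Stimulated culture set the cells widely apart from fresh cells, and most of that distance was shared with culture alone. Of 10877 genes, 1042 rose (9.58%) and 1007 fell (9.26%) in stimulated against fresh cells (limma, Benjamini-Hochberg adjusted p under 0.05), which is 2049 in either direction (18.8%). Before adjustment 3367 genes (31%) lay under 0.05. By at least 2-fold, 90 genes rose (0.827%) and 123 fell (1.13%), and single differences ran from -3.37 to 2.11 on the log2 scale. The 3 stimulated libraries lay wholly above the 3 fresh libraries for 1882 genes (17.3%) and wholly below for 1843 (16.9%). Against unstimulated culture, the same stimulated libraries gave 34 genes higher (0.313%) and 4 lower (0.0368%). Unstimulated against the same fresh libraries gave 1619 higher (14.9%) and 1532 lower (14.1%). These comparisons share libraries, so their calls are not independent of each other. The median difference between stimulated and fresh over all tested genes was 0.0043.

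Each called gene was placed by its 2 steps, the step of culture (unstimulated against fresh) and the step of stimulation (stimulated against unstimulated). Of the 1042 genes that rose, 811 (77.8%) also rose in unstimulated culture and were not called between the 2 cultures, and of the 1007 that fell, 845 (83.9%) did the same downward. Stimulation was needed for 17 of the risen genes and none of the fallen ones, in the sense that they were called against unstimulated cells and not called between unstimulated and fresh cells. Both steps were called in the same direction for 5 risen and 1 fallen gene and in opposite directions for 3 and 3. The remaining 206 risen and 158 fallen genes could not be placed, because neither step passed alone. The median step of stimulation was 0.70 in the class needing stimulation and -0.03 in the risen culture class, whose median step of culture was 0.60. Genes were sorted into classes by whether these same steps passed, so the medians describe the sorting and test nothing.

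**Figure D1:**
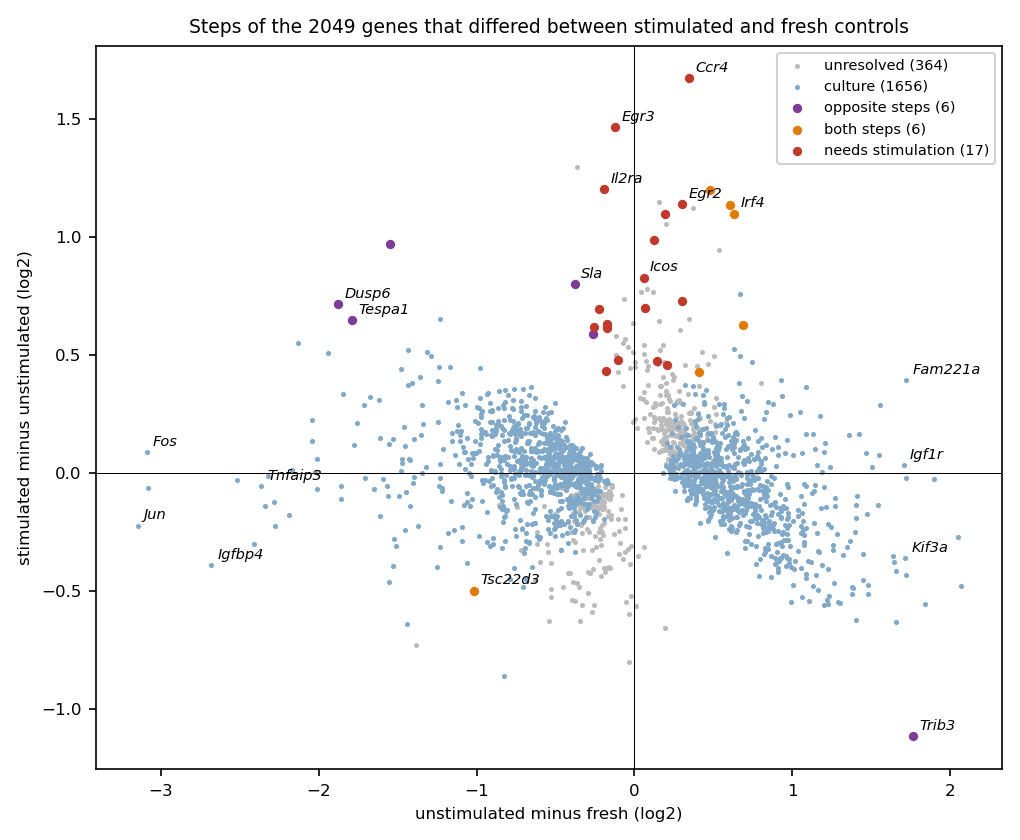
The log2 difference between unstimulated and fresh cells (horizontal axis) and between stimulated and unstimulated cells (vertical axis) is plotted for the 2049 genes called between stimulated and fresh controls, 1 point per gene, coloured by class with the number of genes in the legend. Points spread far along the horizontal axis and little along the vertical one, apart from genes such as Ccr4, Egr3 and Il2ra; both axes use the unstimulated libraries, so an error in these moves a point along both.

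The genes that needed stimulation included receptor-induced transcription factors and receptors that activated T cells display, as well as genes of other kinds. Egr2 and Egr3, zinc-finger transcription factors induced by receptor signals, were both in this class. Egr2 (chromosome 10, 67535475 to 67542188, plus strand, GRCm38) lay at 7.98, 8.55 and 8.38 in stimulated libraries, 6.75, 7.19 and 7.54 in unstimulated libraries and 6.95, 6.79 and 6.84 in fresh libraries. Egr3 (chromosome 14, 70077203 to 70082614, plus strand) lay at 8.10, 8.66 and 8.69 in stimulated, 6.60, 6.97 and 7.49 in unstimulated and 7.10, 7.12 and 7.21 in fresh libraries. For both genes every stimulated library was above all 6 others, while unstimulated and fresh libraries overlapped. Against fresh cells Egr2 was 2.72-fold higher (log2 difference 1.44 ± 0.19 SE, limma adjusted p = 8.62e-05) and Egr3 2.53-fold higher (1.34 ± 0.20, adjusted p = 2.45e-04). Against unstimulated cells the differences were 1.14 (adjusted p = 0.0188) and 1.46 (adjusted p = 0.00527).

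Ccr4, a chemokine receptor of skin-homing and helper T cells, had the largest rise among the 17, with 5.43, 6.78 and 6.42 in stimulated, 4.32, 4.55 and 4.76 in unstimulated and 4.07, 4.20 and 4.32 in fresh libraries. It rose 4.04-fold over fresh cells (2.01 ± 0.27 SE, limma adjusted p = 8.27e-05), and stimulated replicate 1 was lower than the other two. Il2ra, the alpha chain of the interleukin-2 receptor that is displayed as CD25, lay at 6.64, 7.10 and 7.70 in stimulated, 5.81, 5.93 and 6.11 in unstimulated and 6.21, 6.25 and 5.96 in fresh libraries. Its stimulated libraries were all above the rest, and the rise was 2.01-fold (1.01 ± 0.23 SE, adjusted p = 0.00491). Icos, an inducible co-stimulatory receptor, stood at 10.34, 10.58 and 10.49 in stimulated, 9.71, 9.64 and 9.58 in unstimulated and 9.80, 9.39 and 9.56 in fresh libraries. Again no stimulated library overlapped with the others (0.89 ± 0.13 SE, adjusted p = 2.13e-04).

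The other members of the class differed in kind. Hspa4l, of the Hsp110 chaperone family, had the smallest adjusted p of the 17 and rose by 1.29 (stimulated 9.55, 9.83 and 9.84, unstimulated 8.39, 8.82 and 8.72, fresh 8.60, 8.34 and 8.41). Itih5, of the inter-alpha-trypsin inhibitor family, rose by 1.11 and Myb, a transcription factor of lymphocyte development, by 1.03. The membrane proteins Itm2a and Tspan13 rose by 0.77 and 0.66. The sterol synthesis enzymes Cyp51 and Idi1 rose by 0.62 and 0.44. Slamf1, a co-stimulatory SLAM receptor, rose by 0.47, and Il6st, the shared signal chain gp130 of the interleukin-6 family, by 0.38. Ppip5k2, an inositol pyrophosphate kinase, rose by 0.46, Malt1, a protease of receptor signalling, by 0.36, and Rgs10, a regulator of G protein signalling, by 0.25 (limma adjusted p from 7.12e-06 for Hspa4l to 0.0399 for Rgs10).

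Calls between the 2 cultures depended on single libraries. When the 9 control libraries were left out one at a time, Hspa4l kept its calls against both fresh and unstimulated cells in 9 of 9 fits and Egr3 in 8, losing the call against unstimulated cells without stimulated replicate 3 (limma adjusted p = 0.0656). Egr2, Ccr4, Itih5, Cyp51 and Tspan13 kept both in 5 of 9 and Icos, Il2ra and Itm2a in 4, while the step of stimulation stayed between 0.94 and 1.33 for Egr2, between 0.77 and 0.89 for Icos and between 0.92 and 1.46 for Il2ra. Myb, Ppip5k2 and Rgs10 kept both in 2 fits, Idi1 in 3, and Il6st, Slamf1 and Malt1 in 1. Against fresh cells alone, the calls held in 9 of 9 fits for 11 of the 17, and in 8 for Idi1, 7 for Il6st, 6 for Ppip5k2, 4 for Slamf1 and Malt1 and 3 for Rgs10. Idi1 lost it without fresh replicate 2, Il6st without stimulated replicate 2 or fresh replicate 3, Ppip5k2 without stimulated replicate 3 or fresh replicate 2 or 3, and the lowest differences over the 9 fits were 0.37, 0.32 and 0.40. For Slamf1 the losses came without stimulated replicates 2 and 3 and each fresh replicate, for Malt1 without stimulated replicates 1 and 3, unstimulated replicate 2 and fresh replicates 2 and 3, and for Rgs10 without stimulated replicates 2 and 3, unstimulated replicate 2 and each fresh replicate (lowest differences 0.30, 0.27 and 0.22). The class held 27 risen genes without stimulated replicate 1, 2 and 1 without stimulated replicates 2 and 3, and 3, 6 and 7 without unstimulated replicates 1, 2 and 3. With the 9 control libraries alone 4 genes were higher in stimulated than in unstimulated cells, and with a covariate for each library's slope on GC content 234 were.

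Genes with both steps upward added to what culture alone gave. Irf4, a transcription factor of effector differentiation (chromosome 13, 30749226 to 30766976, plus strand), lay at 10.22, 11.21 and 11.27 in stimulated, 9.49, 9.97 and 9.95 in unstimulated and 9.20, 9.11 and 9.19 in fresh libraries. The 3 groups did not overlap, and stimulated replicate 1 was again below its 2 companions. Irf4 rose 3.32-fold over fresh cells (1.73 ± 0.22 SE, limma adjusted p = 4.26e-05), with a step of stimulation of 1.10 (adjusted p = 0.0395) that passed in 1 of the 9 fits without 1 library, the one without stimulated replicate 1. The claudin gene Cldn10 rose by 1.74, the TNF receptor family gene Tnfrsf19 by 1.67, the zinc-finger gene Zfp52 by 1.31 and the orphan receptor gene Gpr171 by 0.84. Tnfrsf19 kept both calls in 9 of 9 such fits, Gpr171 in 5 and Cldn10 and Zfp52 in 4. The single gene with both steps downward was Tsc22d3, a glucocorticoid-induced inhibitor of NF-kB and AP-1, at 10.35, 10.33 and 10.16 in stimulated, 10.74, 10.77 and 10.82 in unstimulated and 11.69, 11.80 and 11.89 in fresh libraries (-1.51 ± 0.10 SE, adjusted p = 5.31e-08), and its step of stimulation passed in 1 of 9 fits.

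In 6 genes the steps ran against each other. For Sla and Spred2 the comparison with fresh cells alone understates the step of stimulation, and for the other genes it has the opposite sign. Dusp6, a phosphatase that switches off ERK, lay at 7.39, 7.61 and 7.81 in stimulated, 6.81, 6.86 and 6.99 in unstimulated and 8.84, 8.65 and 8.80 in fresh libraries. Stimulated cells were thus above unstimulated cells in every library (0.71, limma adjusted p = 0.00803) and below fresh cells in every library (-1.16 ± 0.11 SE, adjusted p = 2.20e-06). Tespa1, which encodes an adaptor of receptor signalling in thymocytes, and Sytl2, a vesicle transport protein gene, had the same order, with differences from fresh cells of -1.14 and -0.58. Sla and Spred2, inhibitors of receptor and Ras-ERK signalling, fell in unstimulated culture by 0.38 and 0.26 and ended 0.42 and 0.33 above fresh cells after stimulation. Trib3, a stress pseudokinase gene, ended 0.65 above fresh cells, with a step of culture of 1.77 and a step of stimulation of -1.12. Sla kept the calls against fresh and unstimulated cells in 9 of 9 fits without 1 library, Sytl2 in 8, Dusp6 and Spred2 in 5, Tespa1 in 4 and Trib3 in 2. Against fresh cells alone Spred2 lost its call without stimulated replicates 2 or 3 or fresh replicate 3 (lowest difference 0.25) and Trib3 without stimulated replicates 1 or 2, unstimulated replicate 2 or fresh replicates 1 or 3 (lowest 0.52).

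**Figure D2:**
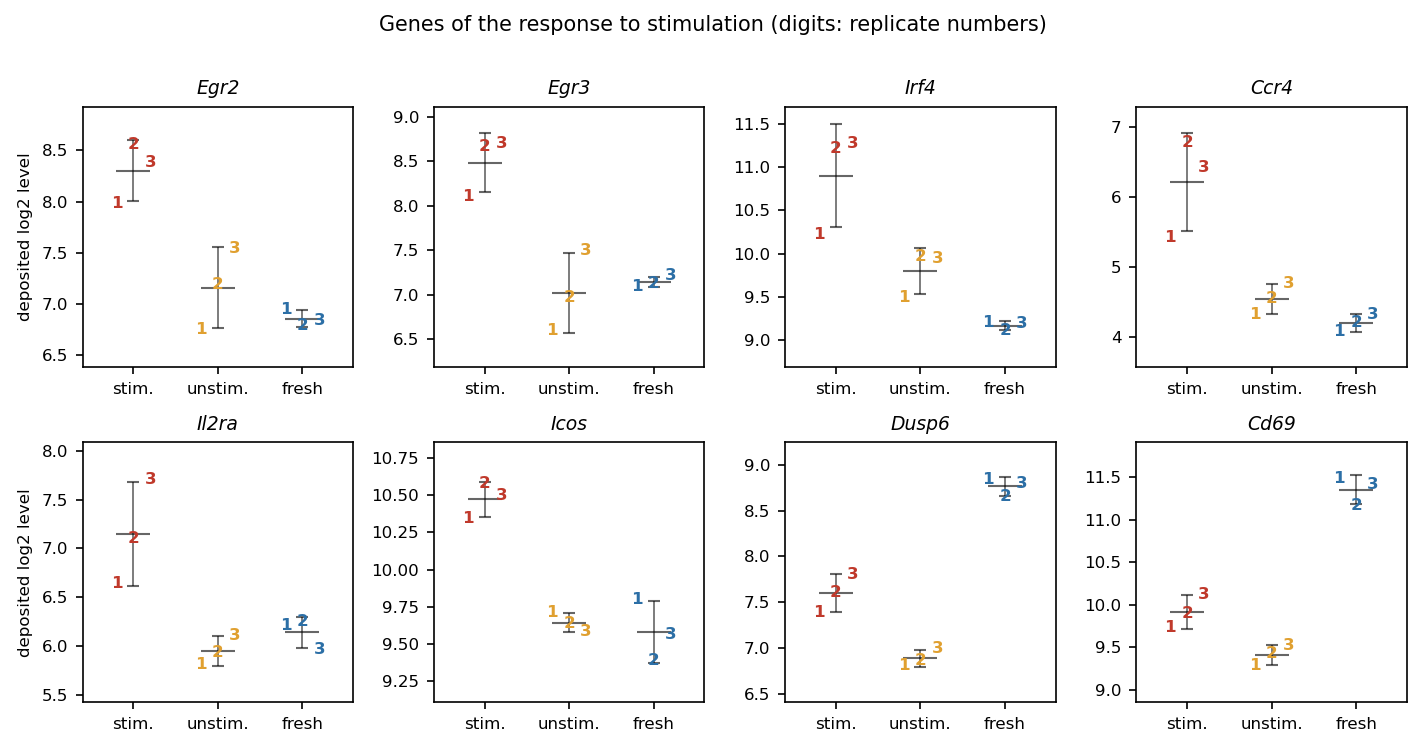
Deposited log2 levels of 8 genes are plotted per control library for stimulated, unstimulated and fresh cells; digits are replicate numbers, bars the mean and SD of 3 libraries, and each panel has its own axis, which does not start at 0. In Egr2, Egr3, Irf4, Ccr4, Il2ra and Icos the stimulated libraries lie above the fresh ones, in Dusp6 and Cd69 they lie below the fresh and above the unstimulated ones, and stimulated replicate 1 is the lowest of its group in all 8 panels.

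Several classical activation genes did not rise over fresh cells. Cd69, an early activation receptor that retains cells in lymphoid tissue, lay at 9.73, 9.90 and 10.12 in stimulated, 9.28, 9.43 and 9.52 in unstimulated and 11.48, 11.16 and 11.41 in fresh libraries. It fell 2.71-fold against fresh cells (-1.44 ± 0.12 SE, limma adjusted p = 5.86e-07), while its difference from unstimulated cells of 0.51 did not pass (adjusted p = 0.0966). Egr1, the third receptor-induced Egr gene, stood at 9.51, 10.17 and 10.12 in stimulated, 8.30, 8.78 and 8.96 in unstimulated and 9.40, 9.51 and 9.58 in fresh libraries. It rose against unstimulated cells (1.25, adjusted p = 0.00803), a call lost without stimulated replicate 2 or 3 or unstimulated replicate 1, and differed from fresh cells by 0.44 (adjusted p = 0.126), which passed at 0.65 without stimulated replicate 1. Myc, which drives growth, and Nr4a1, an orphan nuclear receptor induced by receptor signals, differed from fresh cells by -0.22 and -0.47 without passing. The interleukin-2 gene Il2 stayed under the minimum, with a mean level of 2.35 in stimulated, 2.10 in unstimulated and 1.86 in fresh cells, as did Ifng (-0.04, -0.12 and 0.26 in the same order), Il4 and Il21.

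By list, 8 of 30 tested activation markers and co-receptors rose (26.7%, against 9.58% of all genes) and 6 fell (20%, against 9.26%). The median difference was 0.22. Besides Icos and Slamf1, the risen ones included Pdcd1, the inhibitory receptor PD-1, at 1.00 (limma adjusted p = 0.0261), Tnfrsf9, the co-stimulatory receptor 4-1BB, at 0.93 (adjusted p = 0.0415), and Tnfrsf4, the co-stimulatory receptor OX40, at 0.71. The call of Tnfrsf9 was lost in 8 of 9 fits without 1 library (0.56 to 1.04) and held without stimulated replicate 1. That of Pdcd1 was lost without stimulated replicates 2 or 3 or fresh replicates 1 or 3 (0.71 to 1.06). Ctla4, an inhibitory receptor, fell by 0.86 and Cd44, an adhesion receptor of memory cells, by 1.19. Cd226, a receptor that aids activation, and Cd86, a ligand of CD28, fell by 1.30 and 0.94. The summed level of the regulatory T cell markers, which include Ctla4 and Il2ra, was 9.55 to 9.96 in stimulated, 9.51 to 9.72 in unstimulated and 9.92 to 10.10 in fresh libraries, and its part in these results was not tested. Of 12 cytokines and ligands that reached the minimum, Il16 rose (0.49) and Cd40lg, the ligand through which helper T cells act on B cells, fell (-0.75 ± 0.08 SE, adjusted p = 6.84e-06). Each is 8.33% of this list, against 9.58% risen and 9.26% fallen over all genes. Il16 lost its call without stimulated replicate 2 (0.45) or fresh replicate 1 (0.39).

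Some immediate-early genes were among the largest falls. Jun, Fos, Fosb and Dusp1 stood high in fresh cells and low in both cultures, whereas Egr2 and Egr3 rose over fresh cells by 1.44 and 1.34. Jun and Fos encode partners in the AP-1 transcription factor. Jun (chromosome 4, 95049034 to 95052222, minus strand) lay at 6.81, 7.30 and 6.97 in stimulated, 6.97, 7.31 and 7.47 in unstimulated and 10.09, 10.58 and 10.52 in fresh libraries. Fos (chromosome 12, 85473890 to 85477273, plus strand) lay at 7.85, 8.44 and 7.99 in stimulated, 7.69, 8.04 and 8.28 in unstimulated and 10.91, 11.12 and 11.24 in fresh libraries. The 2 cultures overlapped in both genes, and all fresh libraries were above every cultured one. Jun was 10.3-fold lower (-3.37 ± 0.24 SE, limma adjusted p = 1.25e-07) and Fos 8.01-fold lower (-3.00 ± 0.18, adjusted p = 2.28e-08) in stimulated than in fresh cells. Fosb, a Fos paralog, fell by 3.15, with 6.56, 7.05 and 6.93 in stimulated, 6.53, 7.02 and 7.18 in unstimulated and 9.58, 9.89 and 10.51 in fresh libraries. Dusp1, a MAP kinase phosphatase, fell by 2.33, with 8.11, 8.39 and 8.18 in stimulated, 8.07, 8.25 and 8.41 in unstimulated and 10.35, 10.60 and 10.74 in fresh libraries.

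The promoters of Fosb, Fos and Dusp1 are shown because these genes moved together in both cultures, and that of Egr2 because it needed the antibodies. Each run has 250 bases before and 50 after the start of transcription, read 5′ to 3′ on the strand of the gene from RefSeq on GRCm38.p6. Capitals mark the CRE half-site TGACG or its reverse complement CGTCA, which overlap within the full CRE motif TGACGTCA, and the CArG box. The runs lie at chr7:19309996-19310295 (minus strand) for Fosb, chr12:85473640-85473939 (plus) for Fos, chr17:26508423-26508722 (minus) for Dusp1 and chr10:67537619-67537918 (plus) for Egr2, the middle one of its 5 entries.
Fosb: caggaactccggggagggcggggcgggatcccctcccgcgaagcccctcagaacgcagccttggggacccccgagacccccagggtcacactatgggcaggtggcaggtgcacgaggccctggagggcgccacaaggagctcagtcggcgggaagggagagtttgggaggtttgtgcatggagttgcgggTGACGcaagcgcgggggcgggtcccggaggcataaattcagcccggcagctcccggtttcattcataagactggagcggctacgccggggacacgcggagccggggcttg
Fos: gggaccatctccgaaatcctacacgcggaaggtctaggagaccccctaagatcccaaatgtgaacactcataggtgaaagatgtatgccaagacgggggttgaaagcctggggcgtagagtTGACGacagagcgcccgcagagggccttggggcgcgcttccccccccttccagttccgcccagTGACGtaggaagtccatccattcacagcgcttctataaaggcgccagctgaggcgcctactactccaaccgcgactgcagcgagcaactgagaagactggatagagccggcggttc
Dusp1: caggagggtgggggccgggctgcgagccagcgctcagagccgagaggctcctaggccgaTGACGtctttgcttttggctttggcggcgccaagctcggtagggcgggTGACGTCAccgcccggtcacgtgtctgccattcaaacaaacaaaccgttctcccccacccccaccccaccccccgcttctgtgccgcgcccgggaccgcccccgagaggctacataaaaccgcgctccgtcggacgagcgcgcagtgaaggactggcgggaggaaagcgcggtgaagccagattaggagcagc
Egr2: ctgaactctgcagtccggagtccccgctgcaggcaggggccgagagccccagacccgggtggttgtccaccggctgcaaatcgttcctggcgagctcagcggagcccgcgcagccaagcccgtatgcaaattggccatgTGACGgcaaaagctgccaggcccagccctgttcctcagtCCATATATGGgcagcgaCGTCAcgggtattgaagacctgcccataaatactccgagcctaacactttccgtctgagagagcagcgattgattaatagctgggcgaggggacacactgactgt

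Searched on both strands, the half-site occurred 1 time in the Fosb run, 2 times in Fos, 3 times in Dusp1 (with 1 full CRE motif) and 2 times in Egr2. Among the 4 runs only that of Egr2 held a CArG box. Bases outside these runs were not searched, so a motif lying there would be missed, and no contrast between the genes is drawn. Of all 10919 promoters of tested genes with an entry, leaving out those on chromosome 18, 31.8% held the half-site, 3.25% the full CRE motif, 4.82% the AP-1 motif TGANTCA and 1.22% the CArG box. Per gene, the half-site was found for 40.7% of 797 fallen and 36.8% of 809 risen genes with a promoter, against 36.6% of all 8600. A match describes the letters and is not a site of binding.

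A list of immediate-early and stress genes known to respond to cell isolation had 24 tested members. Of these 16 fell (66.7%, against 9.26% of all genes) and 1 rose (4.17%, against 9.58%). The median difference was -0.75, and the members were chosen with earlier results of these data known. In unstimulated cells 15 fell and 1 rose against the same fresh libraries, where 14.1% and 14.9% of all genes did. The members that fell included Klf4 and Klf6, Kruppel-like transcription factors, by 2.55 and 1.56. Jund, an AP-1 partner, fell by 1.92. Atf3, a stress-induced transcription factor, was the member that rose, by 0.81. Ier2, Zfp36, Btg2 and Nfkbia of the same list did not pass, with differences from -0.41 to -0.07. Junb fell by 2.11 ± 0.66 (SE, limma adjusted p = 0.0336), with 6.64, 8.06 and 6.79 in stimulated against 8.55, 9.54 and 9.75 in fresh libraries, and lost the call without stimulated replicate 1 or 3 or fresh replicate 2 or 3 (-1.98 to -1.85).

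Some genes that damp signalling also fell. Of 29 tested negative feedback regulators 14 fell (48.3%, against 9.26% of all genes) and 2 rose (6.9%, against 9.58%). The other 13 did not pass, and the median was -0.31. Tnfaip3, the ubiquitin-editing inhibitor A20 of NF-kB, had the smallest p of these, at 11.32, 11.28 and 11.35 in stimulated, 11.33, 11.36 and 11.43 in unstimulated and 13.67, 13.57 and 13.97 in fresh libraries. The cultures overlapped, and both lay below all fresh libraries (-2.42 ± 0.09 SE, limma adjusted p = 2.46e-10). Dusp10, a phosphatase of JNK and p38, fell by 2.02, Rgs1 and Rgs2, which turn off G protein signalling, by 1.91 and 1.62, and Nfkbiz, an atypical IkB protein, by 1.25. Sik1, a salt-inducible kinase, fell by 2.71 and Zc3h12a, the RNase Regnase-1, by 1.17. Spred2, above, and Crem, a cAMP-responsive factor that rose by 0.54, were the risen members. Among 23 tested NF-kB pathway genes 1 rose (4.35%), Tnip2 by 0.61, and 3 fell (13%), Tnfaip3 the most. The lists share members: the feedback list holds Tnfaip3 too, and Dusp1, which is also in the isolation-associated list.

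**Figure D3:**
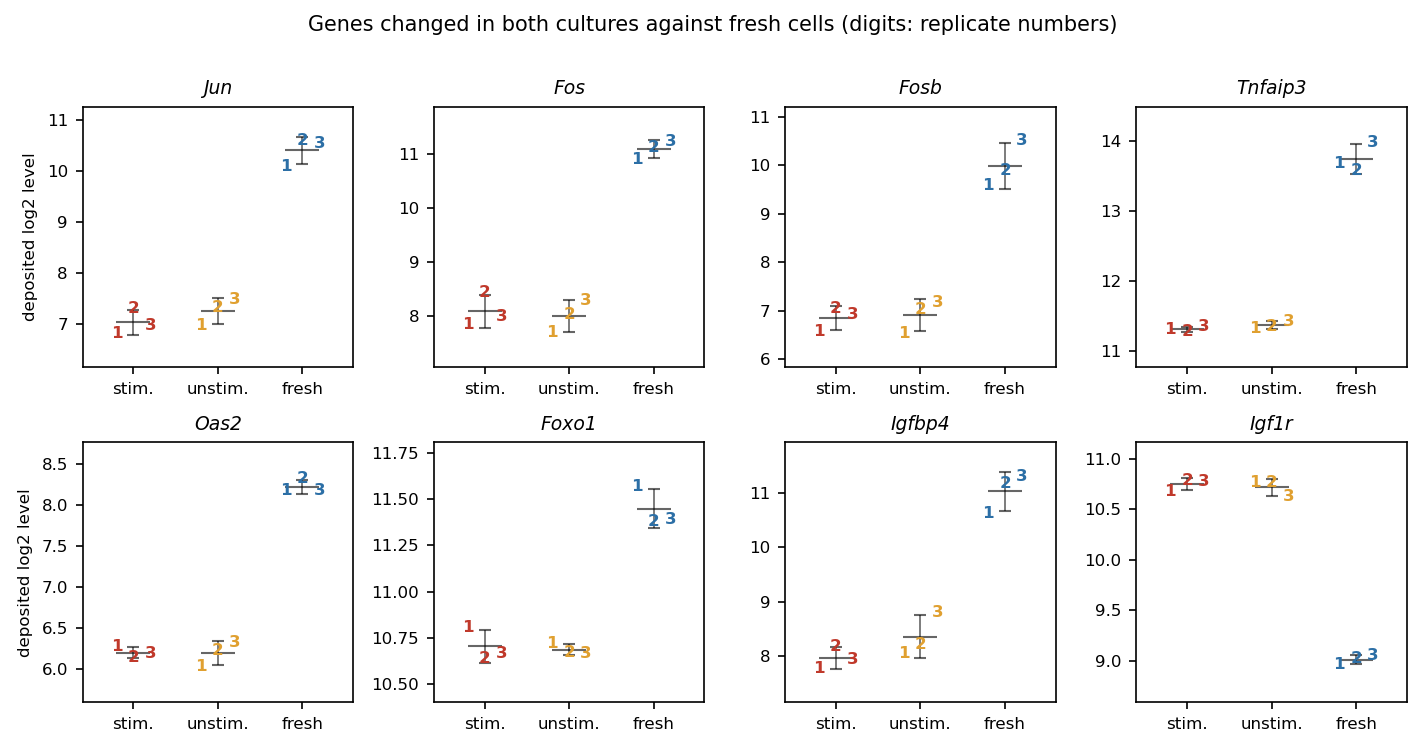
Deposited log2 levels of 8 genes that differed from fresh cells in both cultures are plotted per control library in stimulated, unstimulated and fresh cells; digits are replicate numbers, bars the mean and SD of 3 libraries, and each panel has its own axis, which does not start at 0. The 2 cultures overlap in every panel, below the fresh libraries in Jun, Fos, Fosb, Tnfaip3, Oas2, Foxo1 and Igfbp4 and above them in Igf1r.

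Most interferon-stimulated genes fell in stimulated cells. Of 37 tested, 26 fell (70.3%, against 9.26% of all genes) and 0 rose (median -0.72). In unstimulated culture 25 fell and 2 rose against the same fresh libraries, where 14.1% and 14.9% of all genes did. Oas2, an antiviral oligoadenylate synthetase, lay at 6.27, 6.15 and 6.19 in stimulated, 6.04, 6.23 and 6.32 in unstimulated and 8.17, 8.32 and 8.17 in fresh libraries. It was 4.04-fold lower than in fresh cells with no overlap (-2.02 ± 0.10 SE, limma adjusted p = 4.91e-09). Oas3 fell by 1.65, Rtp4 by 1.53, Mx1, a dynamin-like antiviral GTPase, by 1.26, and the RNA sensors Ddx58 and Ifih1 by 0.93 and 0.80. Irf7 and Irf9, transcription factors of the interferon response, fell by 1.04 and 0.70. Rsad2 (-0.23) and Ly6e (0.14) were among the 11 that did not pass. Of the interferon-gamma receptor chains, Ifngr2 fell by 0.57 while Ifngr1 rose by 0.51. Over all 22 tested cytokine receptors 3 rose (13.6%, against 9.58% of all genes) and 4 fell (18.2%, against 9.26%). The largest fall was that of Tgfbr3, a TGF-beta co-receptor, by 0.87.

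Genes of the naive state did not move as a block. Of 40 tested naive, quiescence and homing genes 9 rose (22.5%, against 9.58% of all genes) and 13 fell (32.5%, against 9.26%), with a median of -0.04. Of these 22 genes, 18 were in the culture class and none needed stimulation, which does not set the list apart. Over all genes the culture class held 77.8% of the risen and 83.9% of the fallen. Stimulation was needed for 1.63% and 0%. Foxo1, the transcription factor that holds quiescence and homing genes on, lay at 10.80, 10.64 and 10.66 in stimulated, 10.72, 10.67 and 10.66 in unstimulated and 11.57, 11.38 and 11.39 in fresh libraries. It fell by 0.75 ± 0.09 (SE, limma adjusted p = 2.72e-05), with no overlap between cultured and fresh libraries. Of its known targets in T cells, Ccr7, the lymph node chemokine receptor, differed by -0.11 and Il7r, the interleukin-7 receptor, by 0.34, and neither passed. Tcf7 and Lef1, transcription factors of naive cells, differed by 0.17 and 0.13 without passing.

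Among the other genes of the naive list, Igfbp4, a secreted binding protein of insulin-like growth factors marking naive cells, fell most, to 7.78, 8.17 and 7.94 in stimulated cells, against 10.63, 11.17 and 11.31 in fresh cells (8.42-fold lower, -3.07 ± 0.27 SE, limma adjusted p = 1.13e-06). Btg1, an antiproliferative factor, fell by 0.86, Cxcr4, a chemokine receptor, by 1.19, and Rasgrp2, an activator of Rap1 in adhesion, by 1.14. Gimap6 fell by 0.77 while its neighbour Gimap4, another GTPase of lymphocyte survival, rose by 0.92. Itga6, an integrin chain, rose by 0.85, Slfn2, a Schlafen protein of quiescence, by 0.65 and Actn1, an actin cross-linker, by 0.50. The memory and effector marker sum given above was lower in stimulated than in fresh libraries, and its part in the falls of homing and adhesion genes was not tested.

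Genes of the receptor complex and its proximal signalling went both ways by small amounts. Of 32 tested 7 rose (21.9%, against 9.58% of all genes) and 5 fell (15.6%, against 9.26%), with a median of -0.04 and a range of -0.76 to 0.54. Cd3e, a signalling chain of the receptor complex, rose by 0.34 ± 0.08 (SE, limma adjusted p = 0.00734), and the kinase gene Lck differed by -0.43 without passing. Cblb, a ubiquitin ligase that raises the activation threshold, rose by 0.54, while Themis, a signalling adaptor, fell by 0.76, Bcl10 by 0.50 and Prkcq, protein kinase C theta, by 0.33. Of 22 tested genes of calcium entry and NFAT 3 rose (13.6%) and 5 fell (22.7%). Rcan3, an inhibitor of calcineurin, rose by 0.81 and Orai3, a calcium channel subunit, by 0.63. Nfatc2, an NFAT transcription factor, fell by 0.72 and Ppp3cc, a calcineurin subunit, by 0.62.

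The largest rises were mostly of the culture class, as were risen genes in general (77.8%). Of the 90 genes that rose at least 2-fold, 73 were in the culture class, 7 needed stimulation and 4 had both steps upward. Over all 1042 risen genes these classes held 811, 17 and 5. Fam221a lay at 7.81, 7.98 and 8.11 in stimulated, 7.66, 7.51 and 7.56 in unstimulated and 5.84, 5.81 and 5.91 in fresh libraries, a 4.33-fold rise over fresh cells (2.11 ± 0.12 SE, limma adjusted p = 1.38e-08). Igf1r, the receptor for insulin-like growth factor 1, lay at 10.68, 10.79 and 10.78 in stimulated, 10.77, 10.77 and 10.62 in unstimulated and 8.96, 9.03 and 9.05 in fresh libraries, a 3.34-fold rise (1.74 ± 0.09, adjusted p = 4.91e-09). In both genes the fresh libraries lay below all cultured ones, and the cultures overlapped in Igf1r only. Ank, a pyrophosphate transporter gene, rose by 1.70, Tnfrsf26 and Tnfrsf23, TNF receptor family genes close together on chromosome 7, by 1.62 and 1.52, Tbc1d30, of a Rab GTPase-activating family, by 1.59 and Kif3a, a kinesin motor subunit, by 1.35. Pgpep1l rose by 1.53 and lies beside Igf1r on the other strand, and since the library kit does not mark strand, reads running past the end of Igf1r cannot be told from its own. Sh3bp2, a signalling adaptor whose steps could not be placed, rose by 1.48 and Tiam1, an activator of Rac, by 1.43.

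Of the 15 largest falls under the naming rule, 14 were in the culture class, against 83.9% of all fallen genes, the exception being Junb. Besides those above they were Dtx1, a Notch pathway ubiquitin ligase, at -2.50, Coro2a, an actin-binding coronin, at -2.48, Ppp1r15a, which restores translation after stress, at -2.41, Slc16a5, of the monocarboxylate transporter family, at -2.37, Dnajb9, a chaperone of the endoplasmic reticulum, at -2.16, and Gbp10, an interferon-induced GTPase, at -2.08 (limma adjusted p from 1.33e-08 for Slc16a5 to 2.77e-04 for Dtx1). Gbp10, Tnfrsf23 and Tnfrsf26 have close paralogs, and the sources used here do not give how reads shared between copies were counted.

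**Figure D4:**
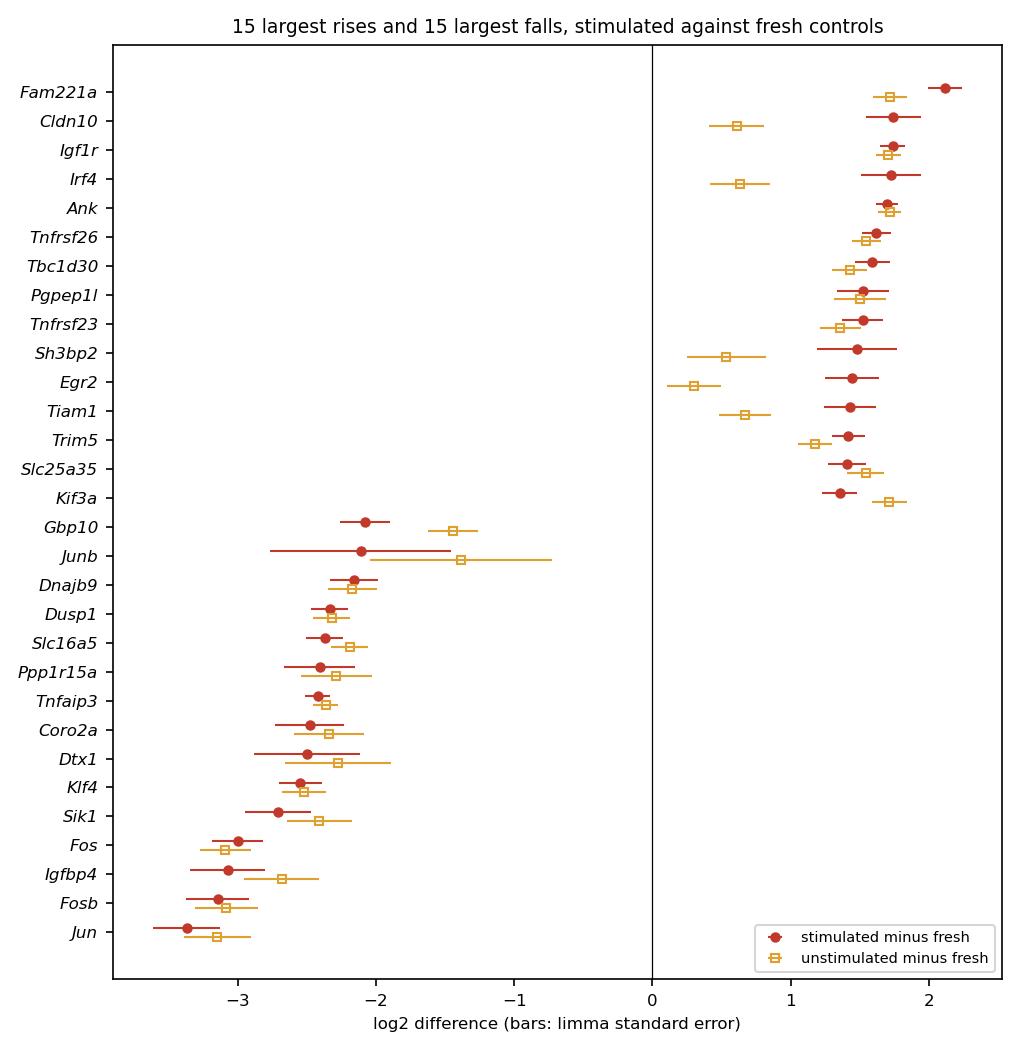
Log2 differences against fresh cells are plotted for the 15 largest rises and 15 largest falls under the naming rule, with stimulated cells as filled circles and unstimulated cells as open squares, and bars for the limma standard error. Most pairs of symbols lie close together; Cldn10, Irf4, Sh3bp2, Egr2 and Tiam1 lie further right in stimulated cells.

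Some protein folding genes fell. Of 29 tested cytosolic and mitochondrial chaperones 13 fell (44.8%, against 9.26% of all genes) and 0 rose (median -0.30). All 13 were in the culture class, which held 83.9% of all fallen genes. Of 27 genes of endoplasmic reticulum folding and the unfolded protein response 8 fell (29.6%) and 1 rose (3.7%, against 9.58%), with a median of -0.15. Hspa5, the main chaperone of the endoplasmic reticulum, lay at 10.88, 11.11 and 11.19 in stimulated, 10.63, 10.78 and 10.83 in unstimulated and 12.46, 12.23 and 12.41 in fresh libraries (-1.31 ± 0.11 SE, limma adjusted p = 7.14e-07). Atf4 and Xbp1, transcription factors of the stress responses, fell by 0.96 and 0.65. Among cytosolic chaperones Hspa8 fell by 0.78, Hsph1 by 0.88, Dnaja1 by 0.71 and the co-chaperone Bag3 by 1.19.

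In the genes of growth few rose, and the share that fell was near that of all genes (9.26%) in several lists. Ribosome biogenesis had 1 of 40 tested members up and 4 down (median -0.18), translation factors 0 and 3 of 22 (median -0.07), cytosolic ribosomal proteins 0 and 3 of 43 (median -0.17) and aminoacyl-tRNA synthetases 0 and 1 of 20. The shares that fell were 10% for ribosome biogenesis, 13.6% for translation factors, 6.98% for ribosomal proteins and 5% for the synthetases. In unstimulated culture 16 of the 40 ribosome biogenesis genes and 10 of the 22 translation factors fell against the same fresh libraries, where 14.1% of all genes did. Gnl3, a nucleolar GTPase, fell by 0.80, with 9.44, 9.43 and 9.64 in stimulated, 8.99, 8.99 and 8.99 in unstimulated and 10.45, 10.11 and 10.36 in fresh libraries. Its stimulated libraries lay between those of the other groups, and the difference from unstimulated cells of 0.51 did not pass (limma adjusted p = 0.132). Eif4a1, the RNA helicase of translation initiation, fell by 0.70 and Odc1, the first enzyme of polyamine synthesis, by 0.83.

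In metabolism, sterol and fatty acid synthesis had the highest share of risen genes among the lists. Of 32 genes 11 rose (34.4%, against 9.58% of all genes) and 4 fell (12.5%, against 9.26%), with a median of 0.13. Cyp51 rose to 8.69, 8.81 and 8.98 in stimulated cells, against 8.24, 8.36 and 8.46 in unstimulated and 8.26, 8.26 and 8.12 in fresh cells. Hmgcs1, which makes the precursor of the sterol pathway, rose by 0.60, Msmo1 and Sc5d, late enzymes of that pathway, by 0.50 and 0.43, and the elongase Elovl6 by 0.62. Scd2, a desaturase, fell by 0.88. Of these 15 calls 5 were in the culture class, 2 needed stimulation and 8 could not be placed. Over all genes 19.8% of the risen and 15.7% of the fallen could not be placed. Glycolysis had 1 of 23 members up (4.35%) and 3 down (13%), with the glucose transporter gene Slc2a3 falling by 0.43. Nuclear oxidative phosphorylation had 0 up and 4 of 43 down (median -0.12), and these 9.3% are near the 9.26% of all genes. No mitochondrially encoded gene of 13 passed by limma. Of 30 amino acid transport, one-carbon and polyamine genes 2 rose (6.67%) and 4 fell (13.3%), the transporter genes Slc38a1 and Slc38a2 going apart at 0.49 and -0.71. Of 33 lysosome and autophagy genes 5 rose (15.2%) and 0 fell (median 0.12). The risen ones included the lysosomal membrane protein gene Lamp2, by 1.23, and Gabarapl1, of autophagosome formation, by 1.26.

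Cell cycle genes changed in both directions. Of 39 tested genes of cell cycle entry and DNA replication 5 rose (12.8%, against 9.58% of all genes) and 11 fell (28.2%, against 9.26%). Their median was -0.08, and of 16 tested mitosis genes none passed. Ccnd2 and Ccnd3, the D cyclins of T cells, fell by 0.51 and 0.57 and Pcna, the clamp of DNA polymerase, by 0.64. Cdkn1a, the cell cycle inhibitor p21, rose, at 5.36, 5.68 and 5.64 in stimulated, 5.31, 5.52 and 5.63 in unstimulated and 4.23, 4.52 and 4.69 in fresh libraries (1.08 ± 0.16 SE, limma adjusted p = 1.96e-04). Of 26 survival and death genes 3 rose (11.5%) and 4 fell (15.4%). The antiapoptotic Bcl2 fell by 0.70 and the proapoptotic Pmaip1 by 0.86.

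**Figure D5:**
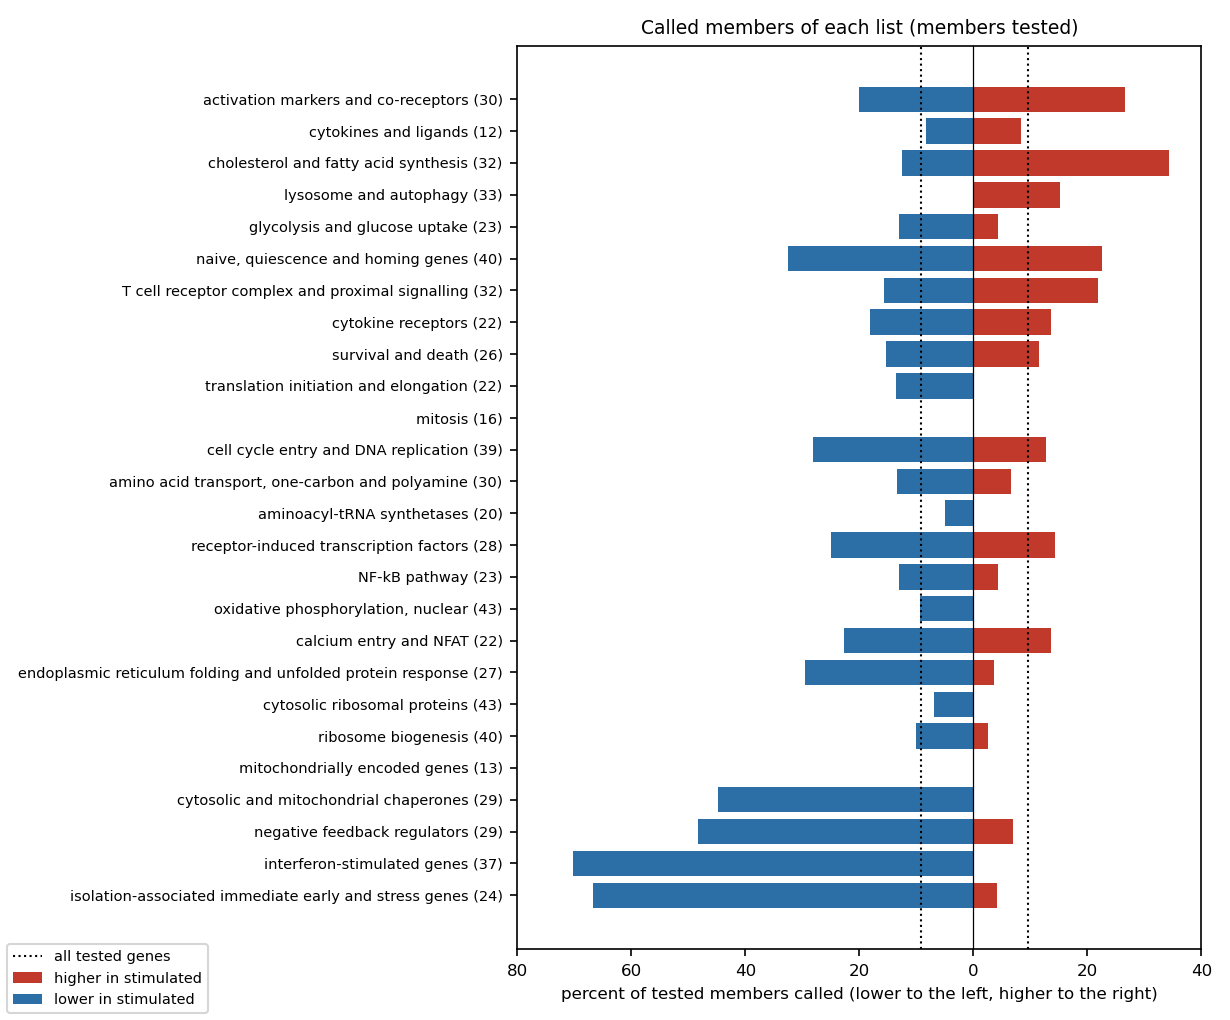
For each of 26 gene lists, ordered by median difference, the percentage of tested members that rose (right) and fell (left) in stimulated against fresh controls is drawn as a bar from 0, with the number tested in parentheses and dotted lines at the percentages over all tested genes, 9.58 and 9.26. Isolation-associated, interferon-stimulated, feedback and chaperone lists have the longest bars to the left, and the sterol and fatty acid list the longest to the right. Lists share members, such as Dusp1 in the isolation-associated and feedback lists, so the bars are not independent.

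The call counts between stimulated and fresh cells moved with the handling of the libraries. With only the 6 libraries compared, 721 genes rose and 742 fell, and without replicate 1 of each of the 3 control groups, a setting chosen after seeing the data, 631 and 607. With the covariate for slope on GC content, 2208 and 2252 were called. The difference between stimulated and fresh cells was not shown to differ between genotypes: 0 of 10877 genes passed limma's interaction test, with a smallest adjusted p of 0.526, and 414 (3.81%) lay under 0.05 before adjustment. Creld1 differed by 0.16 ± 0.23 (SE) between stimulated and fresh controls and did not pass.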

How the data were processed

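RNA was measured in 18 libraries of 6 groups, 3 per group. The authors deposited 1 table of normalized log2 values per gene. Per the submitters' processing notes, the build was mm10 and the tools were HISAT2 2.1.0, Partek 6.6, DESeq2, SAMtools 1.4 and CASAVA 1.8, with no role given, and raw counts were not used here. The deposited log2 values ran from -1.36 to 17.2.

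Genes whose linear value reached 10 in 3 libraries were kept. All 18 libraries entered 1 limma 3.58.1 fit (R 4.3.3) with a group term and a mean trend, giving 12 residual degrees of freedom, and p-values were adjusted by Benjamini-Hochberg over all 10877 genes, with 0.05 as threshold. The code was tested on simulated data. Python 3.11.15, pandas 2.3.3 and matplotlib 3.10.9 were used for tables and plots. Coordinates are from GENCODE M21 on GRCm38, which matched 15031 symbols and gave GC content for 10803 tested genes (99.3%). The sums of marker lists are log2 of summed linear values. Library preparation did not mark strand, so overlapping and antisense genes cannot be told apart.

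The naming rule took the sort genes, the 6 smallest p in each list and any gene of the transcription factor, cytokine, cytokine receptor and naive lists. To these it added the 15 largest rises and falls and up to 5 genes per class. These ranked genes had no overlap between groups and a mean log2 level of at least log2(100) in the higher group. From its rankings the rule left out clone-named genes (Gm with digits, names ending in Rik, letters with a long run of digits). Atf3, Ccr4, Crem, Elovl6, Idi1, Ifih1, Irf7, Irf9, Itm2a, Lck, Ly6e, Malt1, Nfkbia, Pdcd1, Ppip5k2, Rgs10, Rsad2, Slamf1, Tnfrsf19, Tnfrsf4, Tnfrsf9, Trib3, Tspan13 and Zfp36 fall outside it and were chosen after their values were seen. The comparison, its gene lists and its markers were chosen with earlier results of these data known. Alternatives changed the pseudocount, filter, scaling, libraries fitted, trend, library weights, GC correction, replicate block and minimum fold, and left out single libraries. Some results are not reported here.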

Additional observations from a re-analysis of the deposited data

How the results depend on the processing

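Between stimulated and fresh controls, the counts of risen and fallen genes were 2208 and 2252 with a covariate for each library's slope on GC content (GC slope), 1698 and 1703 with a GC spline removed, 2239 and 2288 with the replicate block and the GC slope, and 2032 and 2090 with library weights. A test against a minimum fold of 2 gave 6 and 29, and leaving out replicate 1 of each control group, a setting chosen after seeing the data, gave 631 and 607. Between stimulated and unstimulated cells, 234 and 87 were called with the GC slope, 102 and 29 with the spline, 187 and 53 with block and slope, 1098 and 1599 with library weights, 54 and 7 with quantile normalization, 7 and 0 with only the groups compared, 4 and 0 with the 9 control libraries and 0 and 0 against the minimum fold. The count of lower genes there was 7 without a filter and 2 with TMM-type scaling. Leaving out 1 library gave 4 to 67 higher and 0 to 11 lower genes. Between unstimulated and fresh cells, library weights gave 2950 and 2519, the minimum fold 6 and 27, and the omission of replicates 1 gave 892 and 772, while single omissions gave 1010 to 1514 lower genes.

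The class needing stimulation held 69 risen and 17 fallen genes with the GC slope, 37 and 8 with the spline, 59 and 16 with block and slope, 225 and 275 with library weights, 2 risen genes with only the groups compared or only the control libraries, and 1 to 27 risen and 0 to 1 fallen genes without single libraries. It held 2 fallen genes with quantile normalization and 1 with the block. Of the 17 reported genes, 16 were still in the class with the GC slope, 17 with the block and 9 with library weights. The culture class held 1707 and 1667 genes with the slope, 1353 and 1388 with the spline, 1673 and 1666 with block and slope and 460 and 454 without replicates 1, and 1238 risen genes with library weights. Library weights ran from 0.115 to 4.11 and called 2859 and 2692 genotype differences, where the unweighted fit called 0. The cause of these shifts was not tested. The omissions also left fewer libraries in the fit, and the part of that was not tested either.

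The replicate block grouped runs of library numbers, which the labels do not give as pairs, and called 1188 and 1130 genes between stimulated and fresh cells and 38 and 3 between the cultures. Deviations of stimulated and fresh libraries of a run correlated at 0.689, 0.568 and 0.066. For stimulated and unstimulated libraries the values were 0.529, 0.134 and 0.04, and for unstimulated and fresh libraries 0.543, 0.094 and 0.423. All were positive and uneven in size, and whether a run shares an effect was not tested. The labels do not pair the samples, and the main fit did not either. Scaling moved the median of all genes between these groups by 6e-04. Creld1 ranged from -0.0229, without stimulated replicate 2, to 0.32 between stimulated and fresh cells without single libraries. Depth is unknown, so counting error could not be set beside any value, and 3 libraries per group limit the precision.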
